A study of Mus musculus with 2 samples.

Results

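The genes described here encode the chains of collagens and laminins, the matrix metalloproteinases (MMPs) that cut them and the tissue inhibitors of metalloproteinases (TIMPs). They were taken by name from the platform annotation: symbols of the form Col, digits, a and digits, symbols beginning Lama, Lamb or Lamc with a digit, and Mmp or Timp with digits. That gave 72 genes of the 18193 named on the array, read by 141 of 45101 probe sets. Of these, 11 were fibrillar collagens, 18 basement membrane chains, 23 other collagens, 16 metalloproteinases and 4 TIMPs.

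Expression was measured on 2 arrays of mouse liver RNA. The Ad-PDK4 array carried a pool of 3 mice that had received an adenovirus made to overexpress PDK4, a kinase that switches off pyruvate dehydrogenase, and the Ad-control array a pool of 4 mice that had received the empty vector. All mice were C57BL/6J, aged 2 months, were injected through the tail vein with 1000000000 plaque-forming units and were killed on day 3, so that the controls carried adenovirus as well. Each group is 1 pool on 1 array, the spread between mice cannot be measured, and no p-value is given for any difference.

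Pdk4 itself had a signal of 177 on the Ad-PDK4 array, against 234 on the Ad-control array, so that its single probe set does not show overexpression. The hepatocyte markers were bright on both arrays, with albumin at 101771 and 97338 on the Ad-PDK4 and Ad-control arrays, and all 8 lay within 1.5-fold, from Cps1 at -0.34 to G6pc at 0.50 on the log2 scale. The markers of exocrine pancreas were higher in the Ad-PDK4 pool for 16 of 16 genes, with a summed signal of 103445, against 12905 in the Ad-control pool (log2 differences of 1.24 for Pnliprp2 to 3.68 for Reg2), and their part in the matrix results was not tested. The 4 skeletal muscle markers were all at least 1.5-fold lower in the Ad-PDK4 pool, with summed signals of 1336, against 2743 in the Ad-control pool, and Tnnt3 was the lowest at -1.44. The fat markers Adipoq (0.12) and Retn (0.50) were on the other side within 1.5-fold, and of the 3 mesothelium markers 0 were above the floor on both arrays, with Upk3b at least 1.56-fold lower in the Ad-PDK4 pool. All 7 proliferation markers, 1 of them by a bound, were at least 1.5-fold higher in the Ad-PDK4 pool, from Top2a at 2.59 to Cdc20 at 5.13.

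The interstitial matrix of the liver is built on fibrils of collagens I, III and V, and its vessels, ducts and nerves rest on basement membranes of collagen IV and laminin. Hepatic stellate cells, portal fibroblasts and endothelial cells make most of these chains, whereas an adenovirus given into a vein enters mainly hepatocytes in mice. In liver fibrosis the fibrillar collagens accumulate, and the balance between metalloproteinases and TIMPs sets how fast they are removed.

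Most matrix genes that could be measured differed little between the pools. A gene was counted as measured on an array when its brightest probe set reached the array's floor, the median of all non-control probe sets, a signal of 99.9 on the Ad-PDK4 array and 93.4 on the Ad-control array. Of the 72 genes, 32 reached the floor on both arrays and 34 on neither; 4 reached it on the Ad-PDK4 array alone and 2 on the Ad-control array alone. A share of 47.2% was thus below the floor on both arrays, against 33.4% of all named genes. Among the 32 genes, 2 were at least 1.5-fold higher in the Ad-PDK4 pool (Lama3 and Col16a1), 2 were at least 1.5-fold lower (Timp2 and Col13a1) and 28 lay within 1.5-fold. Of all 10389 genes that reached both floors, 9.21% were higher by 1.5-fold or more, and 5.2% were lower by as much. Both shares were larger among dim genes, where most matrix genes lay, as given below. None (0) of the 32 was 2-fold apart, against 2.7% of all genes higher and 0.732% lower. The counts of 2 and 2 became 8 and 5 when the floor was lowered to the 30th percentile. They became 10 higher and 0 lower with the poly-A spike-in controls as the zero in place of the median probe set. The median log2 difference of these controls was -0.51. That of the hybridization controls was -0.26, and it was not used as a zero. Shares over all genes were computed only at the main floor and zero, so these other counts have none beside them.

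**Figure D1:**
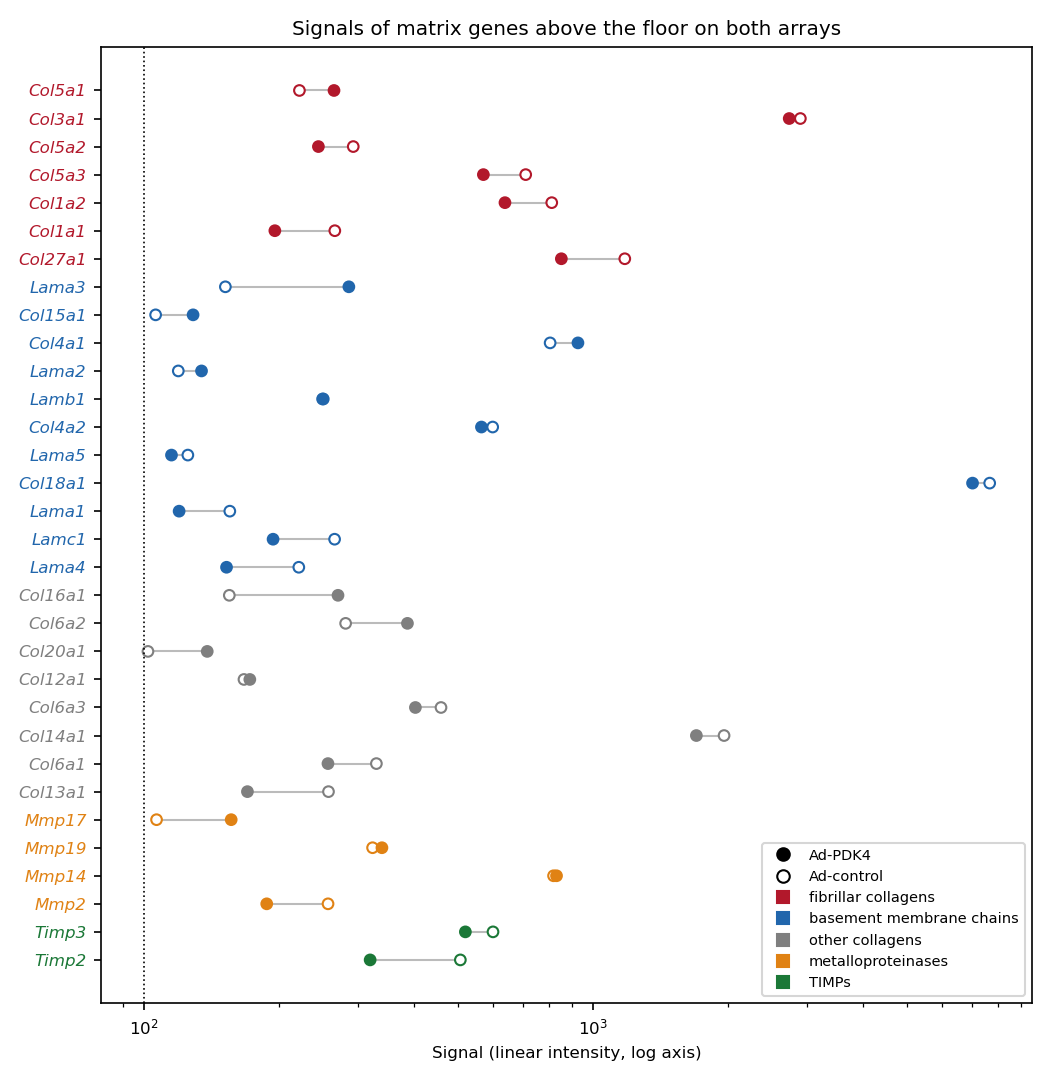
Signal of each of the 32 matrix genes above the floor on both arrays, on a log axis, with the Ad-PDK4 pool as filled and the Ad-control pool as open circles, 1 array each; the dotted line is the floor of the Ad-PDK4 array, 99.9. The pairs lie close together, and the widest gap is that of Lama3 (286 and 152); signals of different genes are not comparable, since each probe set has its own response.

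The fibrillar collagens were mostly slightly lower in the Ad-PDK4 pool. Of 11 genes 7 were measured on both arrays, and the median of their log2 differences (Ad-PDK4 minus Ad-control) stood at -0.30, which became 0.22 with the poly-A controls as the zero. Of the 7, 6 were below 0, or 85.7%, against 48.4% of all genes measured on both arrays, and all 7 lay within 1.5-fold. With the poly-A controls as the zero all 7 stood above 0 on their brightest probe sets, from 0.06 (Col27a1) to 0.785 (Col5a1). The side of these genes thus depends on the zero. In whole liver, fewer cells that make a transcript and less of it per cell cannot be told apart.

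Both chains of collagen I, the main fibril-forming collagen of scar and connective tissue, were on the lower side. Col1a1 had a signal of 196 in the Ad-PDK4 pool and 266 in the Ad-control pool, a log2 difference of -0.43. Col1a2 had 637 and 810 in the Ad-PDK4 and Ad-control pools, a difference of -0.33, and its other measured probe set gave -0.40. These 2 chains, which assemble into the same molecule, thus differed by 0.097 from each other. With the poly-A controls as the zero, Col1a1 stood at 0.0859 and Col1a2 at 0.183.

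Col3a1, the chain of collagen III, had a signal of 2738 in the Ad-PDK4 pool and 2899 in the Ad-control pool, a log2 difference of -0.07. Its other measured probe set, at 122 and 193, gave -0.65, so the size of this difference depends on the probe set. Col27a1, a fibrillar collagen best known from cartilage, had 851 in the Ad-PDK4 pool and 1178 in the Ad-control pool, a difference of -0.45, with -0.29 on its other probe set. It was the lowest of the 7 fibrillar genes.

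Collagen V, which joins collagen I fibrils and limits their width, was split. Col5a1 was the exception among the fibrillar genes, with 265 in the Ad-PDK4 pool and 222 in the Ad-control pool, a log2 difference of 0.27 (0.23 on its other probe set). Col5a2 had 245 and 293 in the Ad-PDK4 and Ad-control pools, a difference of -0.24. Its other probe set was above the floor only on the Ad-PDK4 array (104, against 82.5 on the Ad-control array), at least 1.12-fold higher. Col5a3 had 571 and 709 in the Ad-PDK4 and Ad-control pools, a difference of -0.30. The fibrillar chains of cartilage, Col2a1, Col11a1 and Col11a2, and Col24a1 were below the floor on both arrays.

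**Figure D2:**
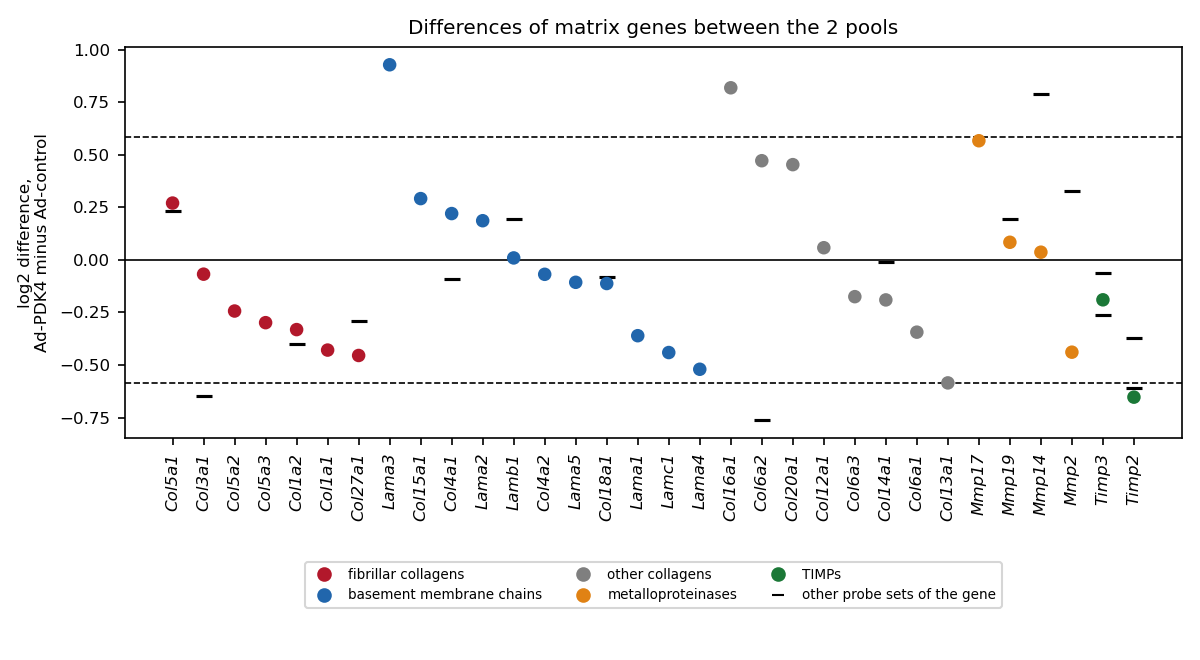
Difference on the log2 scale, Ad-PDK4 minus Ad-control, of the same 32 genes by group (coloured points, brightest probe set of each gene), with the gene's other probe sets measured on both arrays as black dashes; dashed lines mark 1.5-fold. Of the 7 fibrillar collagens 6 lie below 0, while the other groups lie on both sides except the pair of TIMPs; with the poly-A spike-in controls as the zero all points would move up by 0.51.

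Basement membrane chains lay on both sides of 0. Of 18 genes, 11 were measured on both arrays, with a median log2 difference of -0.07 (0.45 with the poly-A controls as the zero); 1 was at least 1.5-fold higher, 0 were lower by that much and 6 of 11 were below 0.

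The 4 collagens of the group measured on both arrays lay within 1.5-fold, from -0.11 to 0.29. Col4a1 had a signal of 927 in the Ad-PDK4 pool and 804 in the Ad-control pool, a log2 difference of 0.22, but -0.09 on its other probe set. Col4a2, whose chain joins that of Col4a1 in the common form of collagen IV, had 565 and 599 in the Ad-PDK4 and Ad-control pools, a difference of -0.07. Their 2 genes lie head to head on chromosome 8, and in the RefSeq promoter table (GRCm38.p6) the first 22 bases downstream of the Col4a2 start, at base 11312805 of the plus strand, also lie downstream of the Col4a1 start, at base 11312826 of the minus strand. The stretch chr8:11312705-11312826 is shown on the plus strand because both genes start in it, with those 22 bases in capitals.
Col4a2: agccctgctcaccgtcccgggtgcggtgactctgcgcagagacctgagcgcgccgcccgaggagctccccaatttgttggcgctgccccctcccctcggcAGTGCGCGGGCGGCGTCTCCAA

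Col18a1, the precursor of the angiogenesis inhibitor endostatin, had a signal of 7008 in the Ad-PDK4 pool and 7652 in the Ad-control pool, a log2 difference of -0.11, and its other probe set gave -0.08. Col15a1, its close relative, had 129 and 106 in the Ad-PDK4 and Ad-control pools, a difference of 0.29 near the floor. Col4a5, a chain of the basement membranes of kidney and other organs, was above the floor only on the Ad-PDK4 array (140, against 90.2 on the Ad-control array), at least 1.51-fold higher, but its other probe set had 77.2 and 103, the opposite order. Col4a3, Col4a4 and Col4a6 were below the floor on both arrays.

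Laminins are cross-shaped trimers of an alpha, a beta and a gamma chain. Of 10 laminin genes 7 were measured on both arrays, 4 of them below 0, with a median of -0.11. Lama3, the alpha chain of epithelial laminins that anchor cells to the basement membrane, had the highest difference of all 32 matrix genes: 286 in the Ad-PDK4 pool and 152 in the Ad-control pool, a log2 difference of 0.93 or 1.90-fold. It rests on 1 probe set, since its other one was below the floor on both arrays (3.8 and 38.3).

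The other alpha chains were closer to 0 or lower. Lama4, a chain of vessel walls, had 153 in the Ad-PDK4 pool and 222 in the Ad-control pool, a log2 difference of -0.52. The other Lama4 probe set was below the floor on both arrays. Lama1, best known from the embryo, had 120 and 156 in the Ad-PDK4 and Ad-control pools (-0.36). Lama2, the chain of muscle, had 135 and 119 (0.19), and Lama5, widespread in adult epithelia and vessels, had 115 and 125 (-0.11). All of these signals were close to the floor.

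Lamc1, the gamma chain of most laminins, had a signal of 194 in the Ad-PDK4 pool and 266 in the Ad-control pool, a log2 difference of -0.44, and its other probe set (45.0 and 155) was above the floor only on the Ad-control array. Lamb1, its common beta partner, had 250 and 251 in the Ad-PDK4 and Ad-control pools, a difference of 0.01. The other Lamb1 probe set measured on both arrays gave 0.19. Lamc3 was above the floor only on the Ad-control array (188, against 45.8 on the Ad-PDK4 array), at least 1.86-fold lower in the Ad-PDK4 pool. Its other probe set was below the floor on both arrays. Of all genes above the floor only on the Ad-control array, 17.3% were lower by a bound of at least 1.5-fold. Lamb2 and Lamb3 did not reach the floor on either array.

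The other collagens held the most genes that could not be measured. Of 23, 8 were measured on both arrays and 14 on neither; the median of the 8 was -0.06 (0.46 with the poly-A controls as the zero), with 1 at least 1.5-fold higher, 1 lower and 4 below 0.

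Collagen VI, a network of beaded filaments around cells, did not give 1 direction. Col6a1 had 257 in the Ad-PDK4 pool and 330 in the Ad-control pool, a log2 difference of -0.34, and Col6a3 had 403 and 459 (-0.17). Col6a2, the third chain of the same molecule, had 387 and 282 in the Ad-PDK4 and Ad-control pools on its brightest probe set, a difference of 0.47, and 217 and 372 on the other, a difference of -0.76. The brighter of these is of the kind that can bind several transcripts, and the direction of Col6a2 is not settled.

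Col16a1 and Col13a1 were the 2 members of this group past 1.5-fold. Col16a1, a collagen that sits on the surface of fibrils, had 271 in the Ad-PDK4 pool and 155 in the Ad-control pool, a log2 difference of 0.82 or 1.76-fold. Col13a1, a transmembrane collagen of cell contacts, had 170 and 258 in the Ad-PDK4 and Ad-control pools, a difference of -0.59, which lies at the 1.5-fold threshold. Each rests on 1 probe set.

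The remaining fibril-associated collagens were near 0 or near the floor. Col14a1 had 1701 in the Ad-PDK4 pool and 1960 in the Ad-control pool, a log2 difference of -0.19, with -0.01 on its other measured probe set. Col12a1 had 172 and 167 in the Ad-PDK4 and Ad-control pools (0.06), and Col20a1 had 139 and 102 (0.45). Col22a1 was above the floor only on the Ad-PDK4 array (170, against 90.4 on the Ad-control array), at least 1.84-fold higher. Its other probe sets were below the floor on both arrays. Of all genes above the floor only on the Ad-PDK4 array, 39.9% had a bound of at least 1.5-fold. Below the floor on both arrays were Col6a4, Col6a5, Col7a1, Col8a1, Col8a2, Col9a1, Col9a2, Col9a3, Col10a1, Col17a1, Col19a1, Col23a1, Col25a1 and Col26a1.

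Few proteases of the matrix were measured. Of 16 metalloproteinases, 4 were above the floor on both arrays, all within 1.5-fold and 1 of them below 0, with a median log2 difference of 0.06 (0.575 with the poly-A controls as the zero).

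Mmp14, the membrane-anchored protease that cuts fibrillar collagen and activates the Mmp2 proenzyme, had 830 in the Ad-PDK4 pool and 818 in the Ad-control pool on its brightest probe set, a log2 difference of 0.04. Its other probe sets were higher in the Ad-PDK4 pool: 280 and 164 on one, a difference of 0.79, and 213 and 73.2 on another, at least 2.31-fold. The 3 probe sets share a direction and not a size. Mmp2, gelatinase A, had 188 and 257 in the Ad-PDK4 and Ad-control pools, a difference of -0.44, but 195 and 157 on its other probe set, a difference of 0.33, so its direction is not settled.

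Mmp19 had 339 in the Ad-PDK4 pool and 323 in the Ad-control pool, a log2 difference of 0.08, with 0.19 on its other probe set. Mmp17, a protease held at the cell surface by a lipid anchor, had 157 and 107 in the Ad-PDK4 and Ad-control pools, a difference of 0.57 or 1.48-fold, just short of 1.5-fold and close to the floor. The membrane-type proteases Mmp24 (106 on the Ad-PDK4 array and 52.8 on the Ad-control array) and Mmp16 (17.3 and 104) passed the floor on 1 array each, and the Ad-PDK4 pool was higher by at least 1.15-fold for Mmp24 and lower by at least 1.03-fold for Mmp16.

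The secreted collagenases, stromelysins and elastases were below the floor on both arrays, as were Mmp9 (52.5 and 88.8 on the Ad-PDK4 and Ad-control arrays) and Mmp8 (57.5 and 48.0), the gelatinase and the collagenase that neutrophils store. Of the neutrophil markers, 3 of 4 measured genes were at least 1.5-fold higher in the Ad-PDK4 pool (S100a8, S100a9 and Ngp, the highest at 0.81), and the lowest was Elane at -0.22. Csf3r, above the floor only on the Ad-control array (41.3 on the Ad-PDK4 array and 201 on the Ad-control array), was at least 2.00-fold lower in the Ad-PDK4 pool, and Mpo (71.4 and 129) at least 1.28-fold lower, so that the list had no common direction. The whole list, with its genes below the floor included, summed to 1127 in the Ad-PDK4 pool and 1080 in the Ad-control pool. The other metalloproteinases below the floor were Mmp3, Mmp7, Mmp10, Mmp11, Mmp12, Mmp13, Mmp20 and Mmp23.

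Several proteases that were below the floor share letters in their promoters. For 53 of the 72 genes the RefSeq table gave the bases before the annotated start, and the 250 bases upstream were searched on both strands for TATAAA, the TATA box; for CCAAT, the CCAAT box; for GGGCGG, the GC box; and for TGANTCA (the site of the AP-1 factors, which drive many metalloproteinase genes); these motifs do not contain each other. The AP-1 letters stood in 6 of 11 matched metalloproteinase genes, Mmp3, Mmp7, Mmp10, Mmp12, Mmp13 and Mmp20, and in 7 of the 53 genes in all, against 7.82% of 27025 genes in the table. All 6 were below the floor on both arrays, as were 9 of the 11 matched metalloproteinase genes, so little can be read from that. Mmp13, the main interstitial collagenase of mice, is shown as an example (chr9:7272264-7272513, plus strand, GRCm38.p6), with the AP-1 and TATA letters in capitals; its signals were 23.4 on the Ad-PDK4 array and 3.6 on the Ad-control array.
Mmp13: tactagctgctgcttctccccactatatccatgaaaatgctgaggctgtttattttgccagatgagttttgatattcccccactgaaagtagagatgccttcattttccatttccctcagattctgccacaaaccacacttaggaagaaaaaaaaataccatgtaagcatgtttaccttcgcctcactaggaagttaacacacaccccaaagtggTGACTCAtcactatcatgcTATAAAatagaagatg

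The inhibitors of these proteases were lower where they could be measured on both arrays. Timp2, which blocks Mmp2 and, bound to Mmp14, also helps to activate it, had 319 in the Ad-PDK4 pool and 507 in the Ad-control pool, a log2 difference of -0.65 or 1.57-fold lower. Its other measured probe sets gave 342 and 448 (-0.37) and 190 and 292 (-0.61) in the Ad-PDK4 and Ad-control pools. All 3 were lower. With the poly-A controls as the zero they no longer shared a direction: the brightest stood at -0.14, no longer past 1.5-fold, and the others at 0.14 and -0.09.

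Timp3, the inhibitor that binds to the matrix itself, had 520 in the Ad-PDK4 pool and 600 in the Ad-control pool, a log2 difference of -0.19, and its 3 measured probe sets ran from -0.26 to -0.06 (the brightest at 0.325 with the poly-A controls as the zero). Timp1, the inducible inhibitor of injured liver, was above the floor only on the Ad-PDK4 array, with 119, against 42.1 on the Ad-control array, at least 1.29-fold higher. Timp4 was below the floor on both arrays. Timp2 and Timp1 thus stood on opposite sides, on signals of which only those of Timp2 were well clear of the floor.

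The promoters of 3 of the 4 genes past 1.5-fold are shown to set the higher gene beside the lower ones, as the 250 bases before each start in GRCm38.p6. Timp2 (chr11:118355412-118355661, minus strand) and Col16a1 (chr4:130047590-130047839, plus strand) have their CCAAT and GC box letters in capitals, and Col13a1 (chr10:61979109-61979358, minus strand) its TATAAA. The CCAAT letters stood in 18 of 53 matched matrix genes and 37.5% of all genes in the table, the GC box in 28 and 35.4%, and the TATA box in 10 and 14.3%. Timp2, which was lower, and Col16a1, which was higher, both hold CCAAT and GC box letters.
Timp2: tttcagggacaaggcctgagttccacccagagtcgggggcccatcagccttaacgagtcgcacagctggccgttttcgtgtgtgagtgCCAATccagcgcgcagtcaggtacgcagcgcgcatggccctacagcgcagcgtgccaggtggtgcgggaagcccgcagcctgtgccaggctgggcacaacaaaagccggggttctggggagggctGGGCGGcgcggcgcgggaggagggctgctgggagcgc
Col16a1: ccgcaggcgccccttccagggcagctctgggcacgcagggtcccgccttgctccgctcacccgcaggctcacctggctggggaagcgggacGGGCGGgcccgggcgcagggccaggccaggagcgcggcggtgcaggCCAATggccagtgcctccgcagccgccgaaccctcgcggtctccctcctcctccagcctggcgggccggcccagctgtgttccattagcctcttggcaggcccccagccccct
Col13a1: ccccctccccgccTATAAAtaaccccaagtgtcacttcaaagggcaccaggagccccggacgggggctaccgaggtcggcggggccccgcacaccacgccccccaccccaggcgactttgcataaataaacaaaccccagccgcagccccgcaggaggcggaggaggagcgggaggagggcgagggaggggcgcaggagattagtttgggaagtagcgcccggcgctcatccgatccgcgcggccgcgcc

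Set beside each other, the 3 groups had medians of -0.30 (fibrillar collagens, 7 genes), -0.07 (basement membrane chains, 11 genes) and 0.06 (metalloproteinases, 4 genes). The median of all 10389 genes was 0.01. Their ranges overlapped, from -0.45 to 0.27 for the fibrillar collagens, -0.52 to 0.93 for the basement membrane chains and -0.44 to 0.57 for the metalloproteinases. With 1 array per group the order of the 3 medians could not be tested. As a scale for single genes, the pooled SD between probe sets of the same gene was 0.32 over the 14 matrix genes with more than 1 measured probe set, and 0.35 over 4326 genes of the array. Of those 14 matrix genes 3 had probe sets on both sides of 0 (Col4a1, Col6a2 and Mmp2), against 50.6% of 4325 such genes of the array. The comparison is uneven, since the 14 genes had 30 measured probe sets and the 4326 had 11416. A gene with more probe sets can fall on both sides more easily.

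Brightness limited these values. Of the 32 matrix genes, 14 were among the 2078 dimmest measured genes of the array, at mean signals of 98.7 to 236, where the SD of the log2 difference was 0.53; it was 0.34 over the 2078 brightest. All 4 genes past 1.5-fold had mean signals under 478, among the dimmer genes. The 4 brightest matrix genes (Col18a1, Col3a1, Col14a1 and Col27a1) ran from -0.45 to -0.07 on their brightest probe sets.

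**Figure D3:**
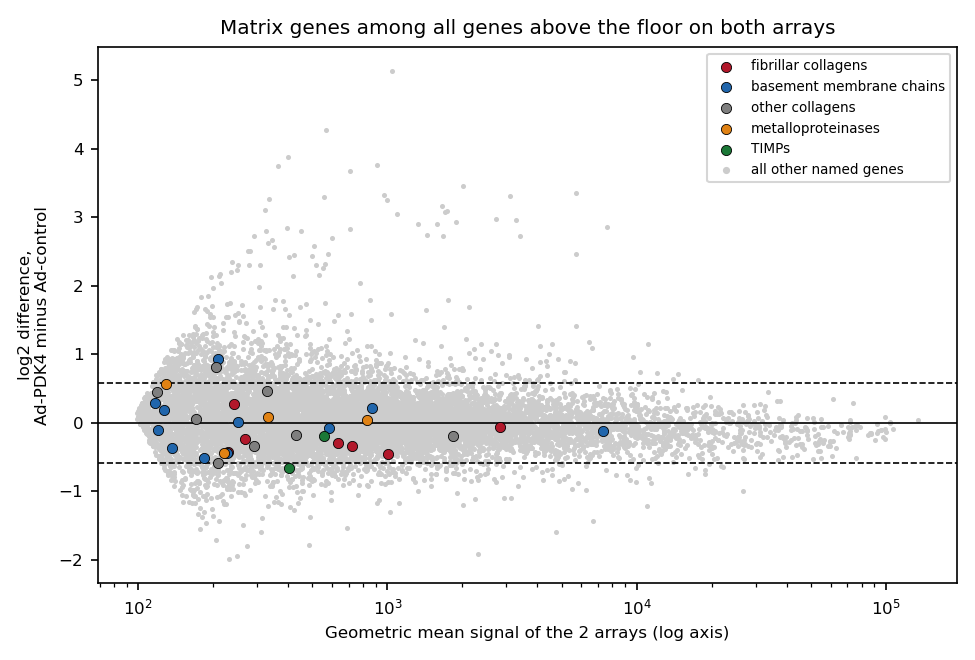
Difference on the log2 scale, Ad-PDK4 minus Ad-control, against the geometric mean signal of the 2 arrays (log axis) for the 32 matrix genes (coloured by group) and all other named genes above the floor on both arrays (grey); dashed lines mark 1.5-fold. The matrix genes, from -0.65 to 0.93, lie inside the grey cloud, and the grey genes far above it are not among them.

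Other genes of the matrix were examined by list. The small leucine-rich proteoglycans, which coat collagen fibrils, had a median log2 difference of -0.19, with 6 of 7 measured genes below 0 and 0 of them past 1.5-fold; they ran from biglycan, Bgn (2721 in the Ad-PDK4 pool and 3300 in the Ad-control pool, -0.26), to Ogn (242 and 232, 0.07), both with probe sets on each side of 0 (-0.26 to 0.23 for Bgn and -0.65 to 0.07 for Ogn). Matrix glycoproteins and elastic fibre genes had a median of -0.16, with 7 of 10 below 0 and 1 at least 1.5-fold higher, Sparcl1 (412 and 251 in the Ad-PDK4 and Ad-control pools, 0.73); the lowest was Ecm1 (1494 and 2130, -0.50). Thbs2 and Fbln1 were above the floor only on the Ad-PDK4 array, at least 1.83-fold and 1.64-fold higher. The other basement membrane proteins, some of which tie laminin to collagen IV, had 4 of 6 measured genes below 0 and 0 past 1.5-fold. They lay between Nid1 (600 and 842 in the Ad-PDK4 and Ad-control pools, -0.47) and Hspg2 (788 and 568, 0.49, with -0.43 on its other probe set).

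The genes that fold, trim and cross-link collagen had a median of 0.15; of 15 measured genes 2 were higher by 1.5-fold or more, 0 were lower by that much and 7 were below 0. Tgm2, a widely expressed transglutaminase that cross-links proteins, had 6611 in the Ad-PDK4 pool and 3517 in the Ad-control pool, a log2 difference of 0.93 and 0.41 to 0.93 over 5 probe sets. P4ha2, a prolyl hydroxylase subunit named after its value was seen, had 437 and 248 (0.83). The lowest was P3h1, another collagen prolyl hydroxylase (168 and 230 in the Ad-PDK4 and Ad-control pools, -0.44).

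Receptors for collagen and laminin all lay within 1.5-fold, with a median of 0.11 over 9 genes, 3 of them below 0, from Itga7 (141 in the Ad-PDK4 pool and 176 in the Ad-control pool, -0.30) to Itga3 (190 and 135, 0.51). Genes of TGF-beta signalling and its matrix targets had a median of -0.29, with 1 of 10 at least 1.5-fold lower and 6 below 0. That gene was Ccn2, connective tissue growth factor, with 335 in the Ad-PDK4 pool and 522 in the Ad-control pool (-0.63), while the ligand Tgfb1 had 205 and 162 (0.36). Among other matrix proteases and inhibitors 1 of 11 was at least 1.5-fold lower, the aggrecan-cutting protease Adamts5 (138 and 244 in the Ad-PDK4 and Ad-control pools, -0.81, with -0.70 on its other probe set). The highest of that list was Adam12 (177 and 130, 0.46), and its median was -0.08 with 7 below 0. With the poly-A controls as the zero each of these differences would be higher by 0.51, so that list medians between -0.51 and 0 depend on the zero for their sign.

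Markers of the cells that make matrix gave no common direction. The list of hepatic stellate cells and fibroblasts summed to a signal of 13379 in the Ad-PDK4 pool and 15822 in the Ad-control pool, with all 14 genes measured, 8 below 0, a median of -0.10, 1 at least 1.5-fold higher and 2 lower. Desmin, Des, was the highest (291 and 179 in the Ad-PDK4 and Ad-control pools, 0.72) and Pth1r the lowest (109 and 276, -1.33). Pdgfra, the other low gene, named after its value was seen, had 123 and 229 (-0.88). Endothelial markers summed to 8808 in the Ad-PDK4 pool and 9886 in the Ad-control pool, with 8 of 12 below 0 and a median of -0.13, from Vwf (112 and 202, -0.84) to Pecam1 (193 and 119, 0.71). Macrophage and Kupffer cell markers summed to 14357 and 15393 in the Ad-PDK4 and Ad-control pools, with 2 of 8 at least 1.5-fold lower, Vsig4 (246 and 567, -1.19) and Clec4f (126 and 278, -1.13); Cd68 was the highest (425 and 333, 0.37). Of the bile duct markers only Epcam (184 in the Ad-PDK4 pool and 266 in the Ad-control pool, -0.52) and Krt23 (356 and 198, 0.86) were measured on both arrays, Krt19 was above the floor only on the Ad-control array (16.9 on the Ad-PDK4 array and 123 on the Ad-control array), and Krt7 and Sox9 were below it on both. The part of cell makeup in the matrix results was not tested.

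**Figure D4:**
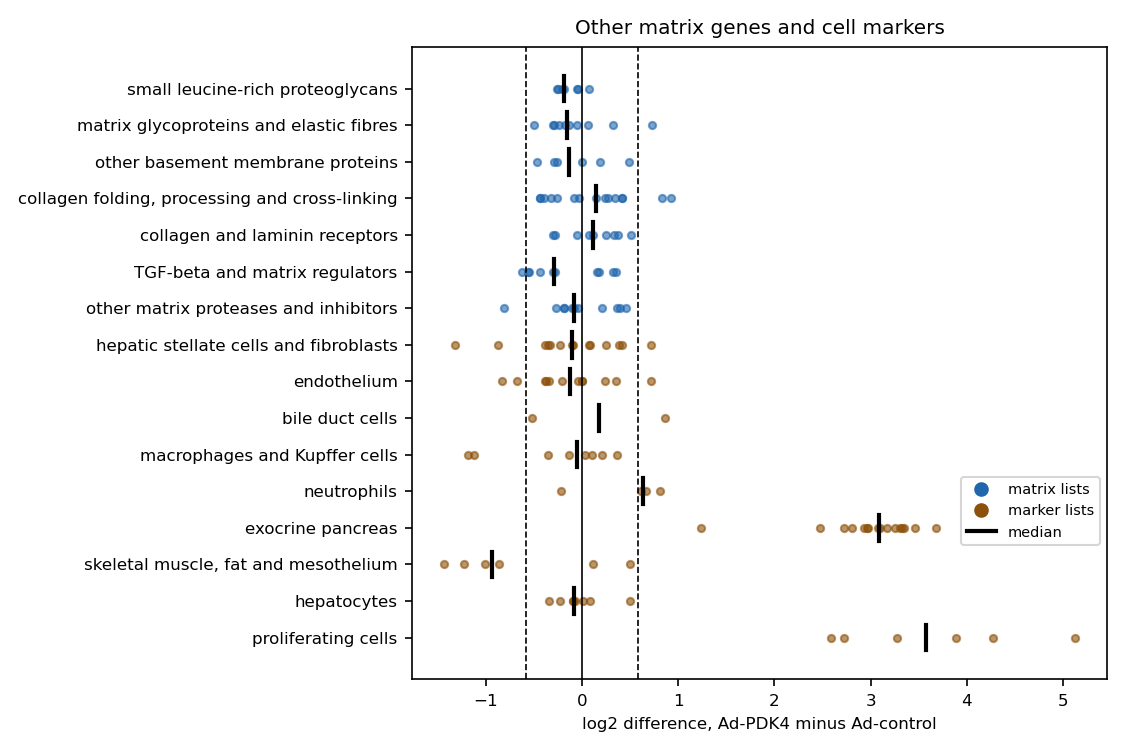
Difference on the log2 scale, Ad-PDK4 minus Ad-control, of every gene above the floor on both arrays in each list of other matrix genes (blue) and of cell markers (brown), with the list median as a black bar; dashed lines mark 1.5-fold. The matrix lists lie around 0, with medians from -0.29 to 0.15, while exocrine pancreas and proliferation markers lie far to the right. The skeletal muscle, fat and mesothelium list has a median of -0.94, and the neutrophil list one of 0.64. With the poly-A spike-in controls as the zero every point would move right by 0.51.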

How the data were processed

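Liver RNA was labelled with biotin from 10 ug of each pool, per the labels' protocols. The deposited table gives 1 linear signal intensity per probe set; both arrays have a mean of 500 without the highest and lowest 2% of values, so the authors' values appear scaled to a common target. They were summarised and background-corrected by steps not given in the sources used here. Symbols of the platform annotation were used (34958 probe sets with 1 symbol, 932 with several, 9211 with none), and all 72 members matched RefSeq by Entrez identifier. Intensities were put on the log2 scale in Python 3.11.15 (numpy 2.4.6, pandas 2.3.3); 64 control probe sets were set aside, and each difference was centred on the median of 20151 probe sets above the 50th percentile on both arrays (-0.01). The brightest probe set by mean log2 signal stood for its gene. A gene above the floor on 1 array has a bound, its signal against the other array's floor. Summed signals cover every gene of a list, those below the floor included. No test is possible with 1 array per group, and the number of arrays limits the precision. All members past the floor on either array are named. Of the other lists the highest and lowest gene measured on both arrays are named, and of the lists of matrix genes every bound of at least 1.5-fold; others, such as Csf3r, Mpo, Upk3b, Adipoq and Krt19, were named after their values were seen. The calculations were tested on simulated data with larger changes, seeded only in genes well above the floor. That test does not cover small differences in dim genes. Members and lists were chosen with earlier results of these data known. Floors at the 30th and 70th percentiles, other centrings, other choices of probe set and a 2-fold threshold were tried. Protein sequences were not used here.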

Additional observations from a re-analysis of the deposited data

How the results depend on the processing

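No paired analysis was possible because each group is 1 array. The counts of matrix genes at least 1.5-fold higher and lower, 2 and 2, depended on the floor: they were 8 and 5 at the 30th percentile, with 45 genes measured on both arrays, and 0 and 1 at the 70th, with 13 genes, where Lama3, Col16a1 and Col13a1 fall below the floor. At the 30th percentile Lamc3 (-2.03), Mmp24 (1.01) and Timp1 (1.5) were measured on both arrays in place of having a bound. Mmp16 still had only a bound there, at -1.41. At a 2-fold threshold the counts were 0 and 0. Without probe sets of the _x_at, _s_at and _a_at kinds the counts were 0 and 3, since Lama3 and Col16a1 were read by _a_at sets; Col3a1 became -0.65, and Mmp2, -0.44 with all its probe sets, became 0.325. With the poly-A spike-in controls as the zero the counts were 10 and 0, and the medians of the fibrillar collagens, basement membrane chains, other collagens, metalloproteinases and TIMPs were 0.216, 0.446, 0.456, 0.575 and 0.0934; that setting adds the same amount to every gene measured on both arrays. None (0) of the 38 genes with a value moved by more than the probe set SD without centring, with quantile normalization or with loess centring. No gene past 1.5-fold changed sign under the alternatives that gave it a value. Several could not show a change, since Lama3, Col16a1 and Col13a1 had no value at the 70th percentile. Lama3 and Col16a1 also had none without _a_at sets. With the poly-A controls as the zero, Timp2 shrank to -0.138 and Col13a1 to -0.0703. A median over probe sets moved 3 genes by more than that SD (Col6a2 to -0.15, Mmp14 to 0.41 and Mmp2 to -0.06). Genes near the floor are limited by their signal over background. Shares over all genes were computed only at the main floor and zero, so the counts at other floors and zeros have none beside them.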

Other observations

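Single probe sets of named genes that did not represent their gene held further differences. A probe set of Timp2 had a signal of 8.4 on the Ad-PDK4 array and 129 on the Ad-control array, lower by a bound of at least 1.28-fold, the same side as the 3 measured on both arrays. A probe set of Lamb1 was above the floor only on the Ad-PDK4 array (130, against 77.6 on the Ad-control array), at least 1.41-fold higher, while the brightest gave 0.01. A probe set of Lama5 was likewise above the floor only there (103, against 53.5), at least 1.12-fold higher, while the brightest gave -0.11.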
